A study of Drosophila melanogaster with 8 samples.

Results

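The Osiris genes were taken as the 24 rows, of 17321 in the expression table, whose name is Osi followed by a number, Osi1 to Osi24. They were measured in whole Drosophila melanogaster embryos of stages 14 and 15, in Oregon R (OrgR), a wild-type laboratory strain, and in mutants of extra sex combs (esc), a gene for a subunit of the Polycomb complex that methylates histone H3. The mutant embryos lacked esc function from both the mother and their own genome, and no other allele or treatment was named for either genotype. Each genotype had 4 libraries in 2 sets (1-1 and 1-2, 2-1 and 2-2), and pools of at least 200 embryos went into each library. How many embryos of each of the stages a pool held was not given in the sources used here, so a different mix of stages between pools and an effect of the genotype cannot be told apart.

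Osiris genes form a family known from insects. They encode proteins with a signal peptide, a conserved domain of unknown function and a hydrophobic stretch predicted to cross a membrane, and several of the proteins have been found in compartments of the secretory and endocytic pathways. Most members in the fly lie side by side in a region known as the Triplo-lethal locus, where flies die with an extra or a missing copy. Many are transcribed in epithelia that secrete cuticle, such as the epidermis and the tracheae, late in embryonic development.

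The values are RPKM, reads scaled to the length of the gene and to the number of mapped reads, so that levels can be compared between genes of different length. The lowest value in the table, 0.001 RPKM, was taken as a floor rather than a value. Relative depth ranged from 84.4% to 100% of that of the deepest library. The transcript of esc, which checks the labels, lay between 10.7 and 12.4 RPKM in the OrgR libraries and between 3.56 and 4.40 RPKM in the mutants. The labels do not say whether libraries of a set are repeats of 1 pool, so they were averaged and counted as 1 sample. The SD beside a mean is taken over the 2 sets of its genotype, and p-values reflect only how these sets vary, which may be technical variation. The strings of letters of the genes and proteins were not used here.

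Most of the Osiris genes were higher in esc, and the family spanned a very wide range of levels in both genotypes. Summed over the 24 members, the level was 2867, 2812, 1645 and 1643 RPKM in OrgR 1-1, 1-2, 2-1 and 2-2. In esc 1-1, 1-2, 2-1 and 2-2 it was 15723, 15653, 12189 and 11532 RPKM. The mean sum went from 2242 ± 845 RPKM to 13774 ± 2706 RPKM, 6.14-fold higher in esc. Every esc library lay far above every OrgR library, and within each genotype set 1 lay above set 2. As a share of all RPKM in the table, the family made up 0.147% to 0.247% in OrgR and 0.938% to 1.35% in esc. In whole embryos, a different number of cells of a type and a different amount of RNA per cell cannot be told apart.

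In the test across the transcriptome, 16 of the 24 members rose, none fell, 2 did not pass and 6 were too low to be tested (limma, Benjamini-Hochberg adjusted p under 0.05 over 10547 tested genes). Of all tested genes, 52.5% passed, with 20.9% rising and 31.6% falling. Rises made up 39.9% of these 5537 calls and 74.4% of 3597 calls under median-of-ratios scaling, where the count of Osiris genes that rose was again 16. The log2 changes of the members that rose ran from 1.35 for Osi13 to 4.67 for Osi18, on a scale of log2(RPKM + 1) that makes the changes of low genes look smaller. Their adjusted p-values ran from 0.00384 to 0.0156. A rise of at least 2 on the log2 scale was seen in 11 members and in 5.94% of tested genes, and one of at least 4 in 5 members (Osi9, Osi14, Osi18, Osi19 and Osi20) and in 1.92% of tested genes. A gene was tested where its 8 libraries averaged 0.5 RPKM or more, and Osi3, Osi8 and Osi13 met it through their levels in esc. Of the 15 members with a mean of at least 0.5 RPKM in OrgR, 13 rose.

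The median log2 change was 2.29 over the 18 tested members and -0.18 over all tested genes, so that a member's change relative to the median gene is larger by 0.18. With all 24 members and all rows of the table included, the medians were 1.91 and 0.00. Without the filter on low values, 9 members passed in place of 16, and these 9 include a member otherwise too low to be tested. Of all 17321 rows, 1679 were then called higher. The adjusted p-values of Osi2, Osi6, Osi7, Osi9, Osi16, Osi17 and Osi18 then lay between 0.0516 and 0.0747, that of Osi5 being 0.0898. All 16 also had every esc library above every OrgR library, as had 26.2% of tested genes.

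**Figure D1:**
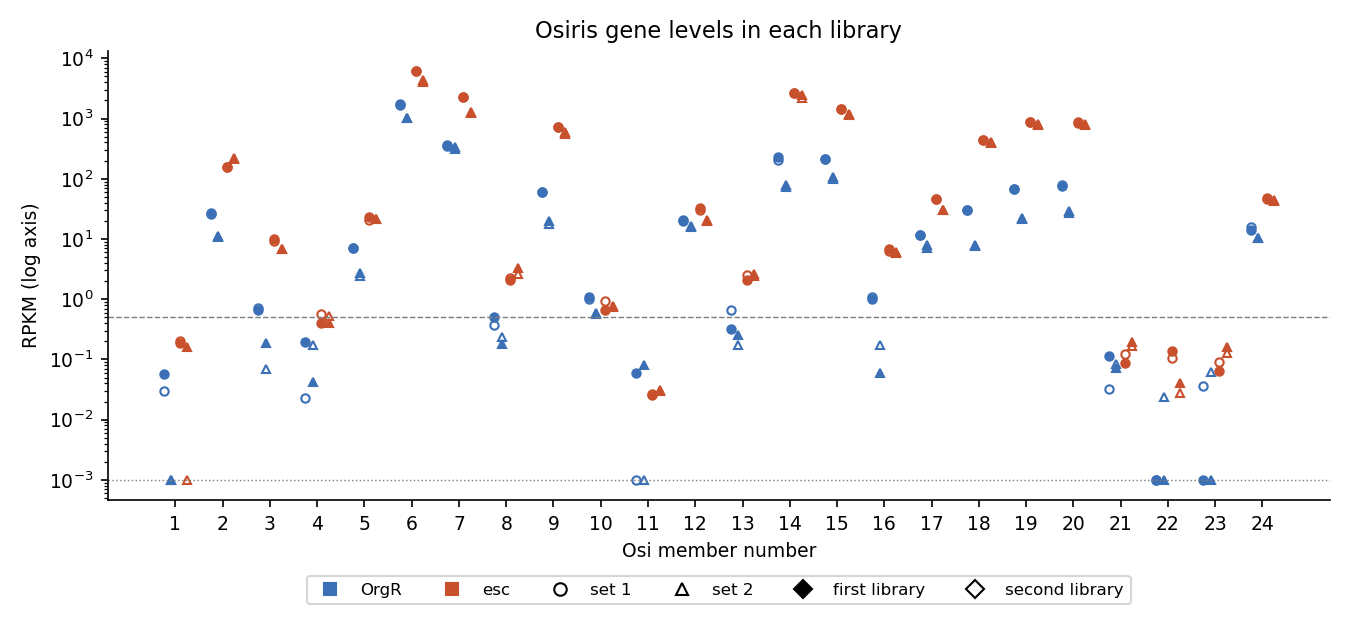
Level of each Osi gene in RPKM on a log axis, by member number, in the 8 libraries (blue, OrgR; orange, esc; circles, set 1; triangles, set 2; filled, first library of a set; open, second library). The dotted line marks the floor of 0.001 RPKM and the dashed line 0.5 RPKM; Osi6 is highest in every library, and Osi11 and Osi21 to Osi23 stay under 0.2 RPKM throughout.

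Osi6 and Osi7 were the members with the highest levels in OrgR. Osi6 stood at 1756, 1702, 1023 and 1016 RPKM in OrgR 1-1, 1-2, 2-1 and 2-2, and at 6111, 6098, 4318 and 4092 RPKM in esc 1-1, 1-2, 2-1 and 2-2. The groups did not overlap, and the lowest esc library lay 2.33-fold above the highest OrgR library. Its mean went from 1374 ± 501 RPKM to 5155 ± 1343 RPKM, 3.75-fold (log2 change 1.93 ± 0.32 SE, adjusted p = 0.0118). In rank among all 17321 rows, Osi6 went from 126 in OrgR to 63 in esc. Osi6 lies on chromosome arm 3R from 6234708 to 6237181 in dm6 and encodes 312 residues by its annotated coding length.

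Osi7 stood at 346, 366, 311 and 331 RPKM in the OrgR libraries and at 2278, 2241, 1275 and 1217 RPKM in the esc libraries. Here the OrgR sets were close together, while the first esc set lay 1.81-fold above the second. The mean went from 339 ± 24.5 RPKM to 1753 ± 717 RPKM, 5.17-fold (log2 change 2.31 ± 0.30, adjusted p = 0.00717). Osi7 (3R, 6248994 to 6251683) is annotated with 288 residues in a single exon.

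Osi14 and Osi15, which are separated by 1065 bp, were next in level in OrgR and rose further. Osi14 (3R, 6299128 to 6300738) was measured at 230.3, 209, 78.3 and 72.3 RPKM in OrgR and at 2643, 2620, 2439 and 2208 RPKM in esc. Its mean went from 147 ± 102 RPKM to 2478 ± 218 RPKM, 16.8-fold (log2 change 4.25 ± 0.52, adjusted p = 0.00626). Its rank in the family was 4 in OrgR and 2 in esc. Osi15 (3R, 6301804 to 6303653), one of the genes known to act in the maturation of tracheal tubes, was measured at 215, 215, 105 and 98.8 RPKM in OrgR and at 1449, 1443, 1177 and 1155 RPKM in esc. The mean change was 8.24-fold (log2 change 3.12 ± 0.38, adjusted p = 0.00618). For both genes the second OrgR set lay lower than the first, and the ratio between the sets was larger in OrgR (2.91 and 2.11) than in esc (1.13 and 1.24).

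The other members known from tracheal tube maturation, Osi9 and Osi19, had a similar course. Osi9 (3R, 6260211 to 6262105) was at 60.2, 60.0, 19.5 and 17.8 RPKM in OrgR and at 720.1, 719, 602 and 551 RPKM in esc (log2 change 4.22 ± 0.56, 16.5-fold, adjusted p = 0.00752). Osi19 (3R, 6335362 to 6337196) was at 68.4, 68.3, 21.4 and 21.9 RPKM in OrgR and at 889.6, 891, 803 and 791 RPKM in esc (log2 change 4.41 ± 0.54, 18.8-fold, adjusted p = 0.00637). In both, the lowest esc library exceeded the highest OrgR library, by 9.15-fold for Osi9 and 11.6-fold for Osi19.

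Osi18 and Osi20 flank Osi19 and rose with it. Osi18 (3R, 6330248 to 6331809) had the largest log2 change of the family. It went from 30.5, 30.2, 7.76 and 8.09 RPKM in the OrgR libraries to 443, 442, 412 and 399 RPKM in the esc libraries, 22.2-fold (log2 change 4.67 ± 0.61, adjusted p = 0.00722). Osi20 (3R, 6340095 to 6341424) went from 75.8, 77.4, 28.9 and 27.5 RPKM to 857, 874, 804 and 771 RPKM, 15.8-fold (log2 change 4.12 ± 0.48, adjusted p = 0.00561). These 3 neighbours ranked between 5298 and 2688 of all rows in OrgR and between 328 and 198 in esc. By size of the log2 change, Osi18 ranked 139 among the 10547 tested genes, Osi19 157, Osi14 175, Osi9 179 and Osi20 192.

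In Osi2 the second esc set lay above the first, as in 5 of the 24 members. It was at 27.4, 26.3, 10.99 and 11.01 RPKM in OrgR and at 159, 157, 219.5 and 213 RPKM in esc. The first esc set was 0.73 of the second. The mean went from 18.9 ± 11.2 RPKM to 187 ± 41.3 RPKM, 9.88-fold (log2 change 3.35 ± 0.44, adjusted p = 0.0073). Osi2 (3R, 6209373 to 6213493) is annotated with 390 residues. Osi8 shared this order of the esc sets, with a ratio of 0.738, as did the untested Osi11, Osi21 and Osi23.

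Osi24, Osi17 and Osi5 had OrgR levels below those of Osi2 and Osi18, and smaller rises than these. Osi24 (3R, 6198811 to 6207678) was at 14.1, 15.6, 10.5 and 10.3 RPKM in OrgR and at 48.4, 47.0, 44.6 and 43.2 RPKM in esc (log2 change 1.80 ± 0.18, 3.63-fold, adjusted p = 0.00441). Osi17 (3R, 6311772 to 6327308), the longest member with 648 to 750 annotated residues, was at 11.7, 11.7, 7.10 and 7.92 RPKM and at 45.5, 46.0, 30.7 and 30.2 RPKM (3.96-fold, log2 change 1.88 ± 0.29, adjusted p = 0.00981). Osi5 (3R, 6227512 to 6228828), the shortest by annotated coding length with 201 to 202 residues, was at 7.05, 6.96, 2.77 and 2.40 RPKM and at 23.0, 20.9, 21.8 and 21.5 RPKM (4.55-fold, log2 change 2.09 ± 0.40, adjusted p = 0.0156). Genotypes did not overlap for these 3 genes. Osi5 did not pass when either esc set was left out, with adjusted p-values of 0.0566 and 0.065.

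Osi3, Osi8, Osi13 and Osi16 were low in OrgR and rose to levels of a few RPKM. Osi3 ranged from 0.069 to 0.712 RPKM in the OrgR libraries and from 6.91 to 9.89 RPKM in esc (20.1-fold, log2 change 2.73 ± 0.26). Osi16 ranged from 0.059 to 1.10 RPKM and from 5.89 to 6.94 RPKM (10.8-fold, 2.26 ± 0.31), and its first OrgR set was 9.10-fold above the second. The ranges of Osi8 were 0.181 to 0.509 and 2.07 to 3.29 RPKM (7.97-fold, 1.43 ± 0.17), and those of Osi13 were 0.171 to 0.65 and 2.05 to 2.63 RPKM (6.89-fold, 1.35 ± 0.14). Adjusted p-values of these 4 genes lay between 0.00384 and 0.00808. Fold values of genes this low rest on few reads in OrgR.

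Osi10 and Osi12 were tested and did not pass. Osi12 (3R, 6278531 to 6282495) was at 20.5, 20.02, 16.7 and 16.1 RPKM in OrgR and at 32.2, 30.7, 20.6 and 19.7 RPKM in esc. The lowest esc library lay below the highest OrgR library, and the second esc set was close to the first OrgR set (log2 change 0.45 ± 0.24, adjusted p = 0.182). By level Osi12 ranked 10 in the family in OrgR, beside Osi2 and Osi18, and 12 in esc. Osi10 was at 1.07, 0.999, 0.588 and 0.575 RPKM in OrgR and at 0.664, 0.933, 0.783 and 0.742 RPKM in esc, so that the esc values lay within the range of the OrgR values (log2 change -0.01 ± 0.16, adjusted p = 0.95). The annotation used here splits Osi10 into Osi10a (3R, 6263958 to 6265465) and Osi10b (3R, 6266190 to 6267457), and which of these the deposited row counts is not known.

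The other 6 members, Osi1, Osi4, Osi11, Osi21, Osi22 and Osi23, were not tested, and no library held more than 0.566 RPKM of any of them. At the read number stated in the labels' protocol, 1 read would be worth between 0.0164 RPKM for Osi4 and 0.0293 RPKM for Osi23, so that most of these values would stand for few reads. Osi4 was at 0.194, 0.023, 0.042 and 0.172 RPKM in OrgR and at 0.41, 0.566, 0.403 and 0.517 RPKM in esc, with no overlap. Osi1 was at 0.058 and 0.030 RPKM in the first OrgR set, at the floor in the second, and at 0.189, 0.203, 0.162 and 0.001 RPKM in esc. Osi11, which lies between Osi10b and Osi12, was at or under 0.082 RPKM in all 8 libraries, with both genotypes overlapping.

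Osi21, Osi22 and Osi23 lie apart from the cluster, Osi21 on 2L (11284327 to 11285706) and the others on 3R (13290629 to 13291846 and 30444076 to 30445046). Osi21, known as diehard4 from its effect on photoreceptor degeneration, ranged from 0.032 to 0.112 RPKM in OrgR and from 0.088 to 0.193 RPKM in esc. Osi22 was at the floor in 3 OrgR libraries and at 0.024 RPKM in OrgR 2-2, and it ranged from 0.028 to 0.137 RPKM in esc. Osi23, known as gore-tex and needed for the pores of olfactory bristles, was at the floor or up to 0.062 RPKM in OrgR and between 0.065 and 0.16 RPKM in esc. All 3 members outside the cluster were thus near the limit of detection in both genotypes. Every esc library of Osi22 and Osi23 lay above every OrgR library, as was the case for 19.1% of all rows, but the gaps between the groups were smaller than the value of 1 read.

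The order of levels within the family was nearly the same in both genotypes (Spearman rho = 0.98 over 24 members, which share libraries and are not independent), while the make-up of the sum shifted. Osi6 made up 60.5% to 62.2% of the summed Osi level in the OrgR libraries and 35.4% to 39.0% in the esc libraries. The 3 highest members together made up 81.2% to 88.0% in OrgR and 65.2% to 70.2% in esc. Osi14 went from 6.57% of the family mean to 18.0%, Osi19 from 2.01% to 6.13% and Osi18 from 0.853% to 3.08%. Without Osi6 and Osi7, the sum of the remaining members went from 529 to 6867 RPKM, 13.0-fold. The number of members above 100 RPKM went from 2 to 4 in the OrgR libraries to 9 in each esc library.

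**Figure D2:**
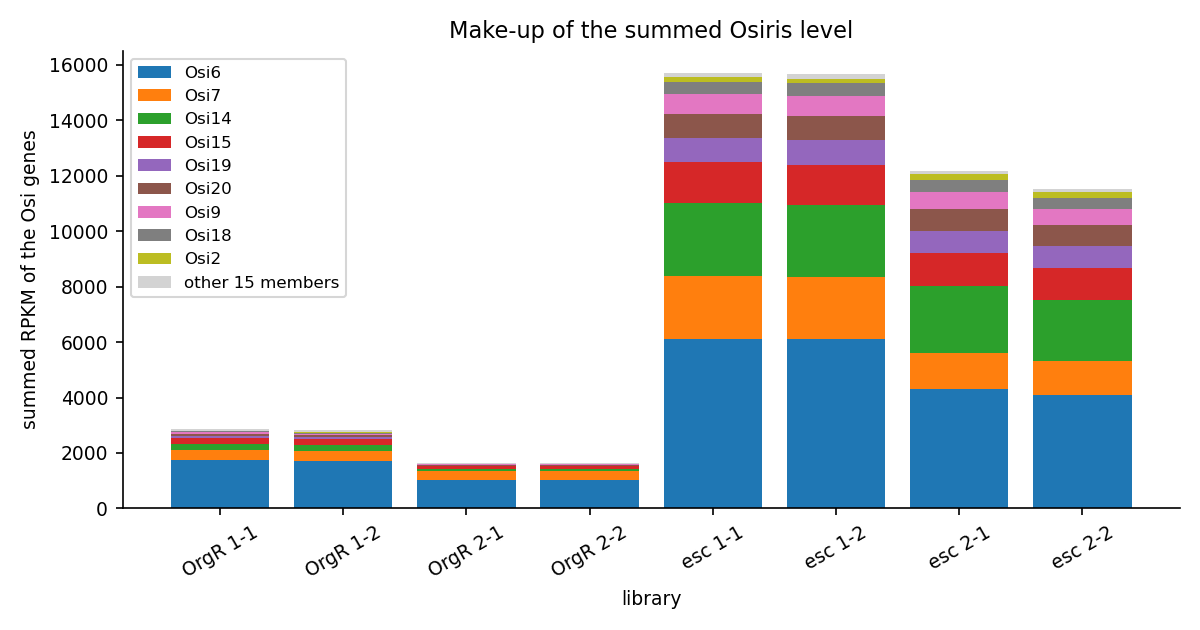
Summed RPKM of the 24 Osi genes in each library, as stacked bars split by member; the 15 members not drawn singly are in grey. Bars of OrgR reach 1643 to 2867 RPKM and those of esc 11532 to 15723 RPKM, and Osi6 takes the largest part of each.

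**Figure D3:**
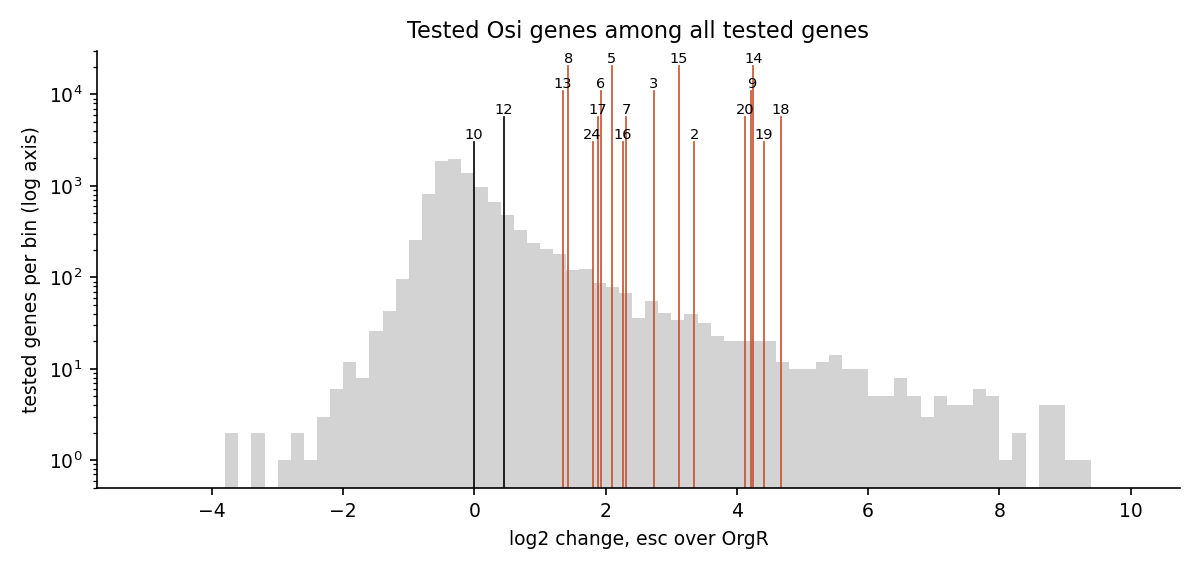
Number of tested genes by log2 change of esc over OrgR in bins of 0.2 (grey, log axis), with a line for each of the 18 tested Osi genes labelled by member number (orange, past the threshold; black, not past it; line height has no meaning). The 16 orange lines lie between 1.35 and 4.67, to the right of most tested genes.

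The OrgR sets themselves differed in these genes. In OrgR, both libraries of set 1 lay above both libraries of set 2 in each of the 18 tested members, compared with 39.6% of all tested genes, while 30.9% had the opposite order. The difference was at least 2-fold in 12 of the 18, compared with 2.20% of tested genes. The ratio of set 1 to set 2 ran from 1.11 for Osi7 to 9.10 for Osi16, with a median of 2.36, while the median of all tested genes was 1.02. In esc, set 1 lay above set 2 in 13 of the 18 (35.4% of tested genes) and below it in 2 (38.5% of tested genes), with a median ratio of 1.11 and a range of 0.73 to 1.81. None of these reached 2-fold, as 0.294% of tested genes did. With 1 set on each side these are descriptions of the sets, with no test.

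**Figure D4:**
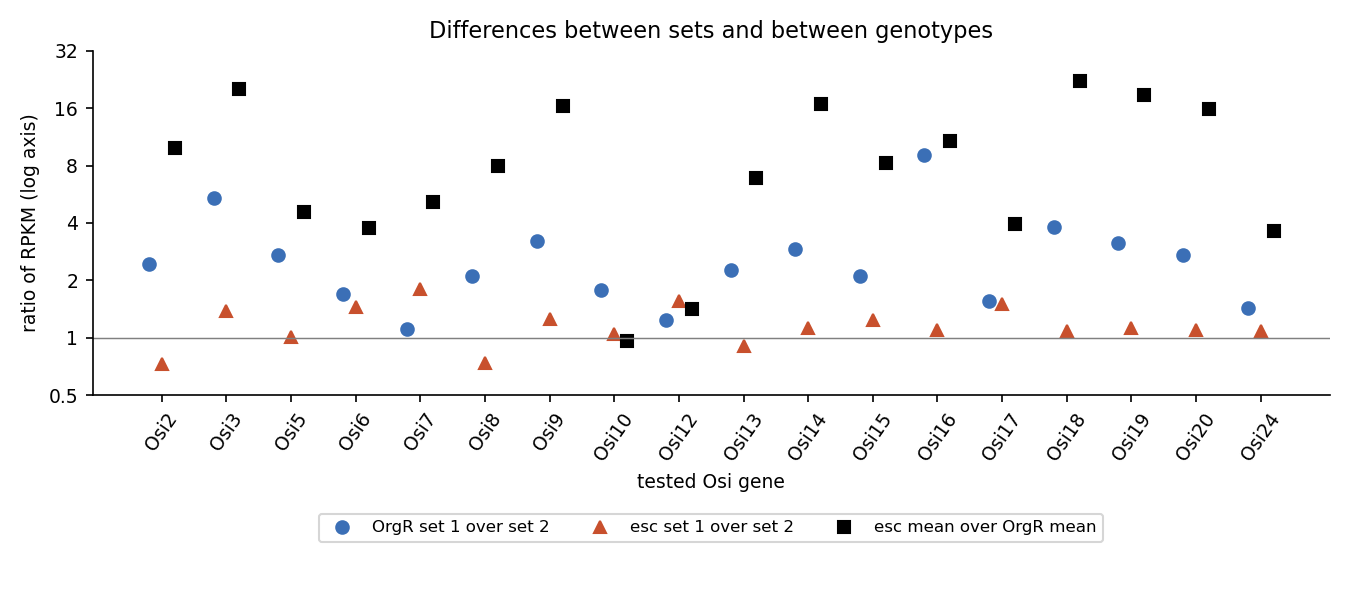
Ratios of RPKM on a log axis for the 18 tested Osi genes: OrgR set 1 over set 2 (blue circles), esc set 1 over set 2 (orange triangles) and the esc mean over the OrgR mean (black squares). All blue circles lie above 1, from 1.11 to 9.10, and the black squares lie above both other marks for each gene other than Osi10 and Osi12.

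The gap between genotypes remained with any 1 set left out. The median log2 change of the tested members was 2.69 without OrgR set 1 and 2.03 without OrgR set 2. It was 2.14 without esc set 1 and 2.53 without esc set 2. With 1 OrgR set kept, the spread came from the esc sets alone. Their median ratio was 1.11 in these genes, against 2.36 between the OrgR sets, so the number of calls in such a fit is no support. Between the lowest esc library and the highest OrgR library, the 16 members that rose differed by 2.33-fold (Osi6) to 13.1-fold (Osi18).

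By position, 21 of the 24 rows belong to a cluster on 3R from 6173549 to 6341424, a stretch of 167.9 kb that holds 22 annotated Osi genes, 20 on the plus strand and Osi4 and Osi11 on the minus strand. Levels differed sharply between neighbours. Osi8 (0.322 ± 0.163 RPKM in OrgR) lies between Osi7 and Osi9, and Osi16 lies 1593 bp from Osi15 at a level of 0.583 ± 0.661 RPKM against 159 ± 80.1 RPKM. The exons of the Osi genes do not overlap those of other annotated genes, apart from 0.7% of the exonic bases of Osi21. Counting was unstranded, and whether related members share reads was not examined.

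Other genes inside the cluster were also called higher. The stretch between Osi1 and Osi20 holds 7 other annotated genes, of which 5 have a row in the table and 4 were tested. All 4 were called higher. NPFR, CG15597 and CG46026 averaged under 0.5 RPKM in OrgR and entered the test through their levels in esc, so their calls are no support beside the 20.9% of tested genes that rose. CG15594 (3R, 6287733 to 6289824), between Osi12 and Osi13, went from 4.44 ± 0.126 RPKM to 32.9 ± 7.16 RPKM, a log2 change of 2.62 ± 0.17 (adjusted p = 0.00191). NPFR, which encodes the receptor of neuropeptide F, went from 0.335 ± 0.0325 to 2.88 ± 0.351 RPKM, a log2 change of 1.54 ± 0.12 (adjusted p = 0.00265). CG46026 (log2 change 1.27, adjusted p = 0.00522) and CG15597 (0.69, adjusted p = 0.0437) changed by less. After quantile normalization 3 of the 4 rose, and without the filter on low values 3 of 5 tested, while with a filter of 5 RPKM CG15594 alone was tested. CG31560, beside Osi17, was at 0.067 RPKM or less in all libraries and was not tested.

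Outside the cluster, both sides differed. Within 75 kb at lower coordinates than Osi1, a window chosen after the values were seen, 5 of 7 tested genes rose, none fell and 2 did not pass, compared with 20.9% of tested genes rising and 31.6% falling. Without the filter on low values 1 of 10 rose, and after quantile normalization 2 fell. The largest of these rises was Obp83g, an odorant binding protein gene, from 12.1 to 14.2 RPKM in OrgR and 327 to 451 RPKM in esc, a log2 change of 4.74 ± 0.16 (adjusted p = 0.00051). Obp83cd and Obp83ef, which lie next to it, also rose, as did Gasp, which is counted again among the tracheal tube and chitin genes below. CG1077, the gene nearest to Osi1, did not pass (-0.15, adjusted p = 0.532). Within 75 kb at higher coordinates than Osi20, none of 16 tested genes rose, 8 fell and 8 did not pass, beside the same shares. The count that fell depended on the setting, at 3 under median-of-ratios scaling, 4 with the replicate block and 6 after centring on the median gene. It was 11 after quantile normalization and 11 with the libraries as separate samples. With a set left out, where a genotype has no spread of its own, fewer than 8 fell. Of the 16, 1 rose with the libraries as separate samples, with a correlation within sets, with set numbers crossed, and without OrgR set 1. CG17917, whose annotated span starts 544 bp after the end of Osi20, had a log2 change of 0.00 (adjusted p = 0.99), and CG17919, next but one, of 0.51 (adjusted p = 0.0953).

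**Figure D5:**
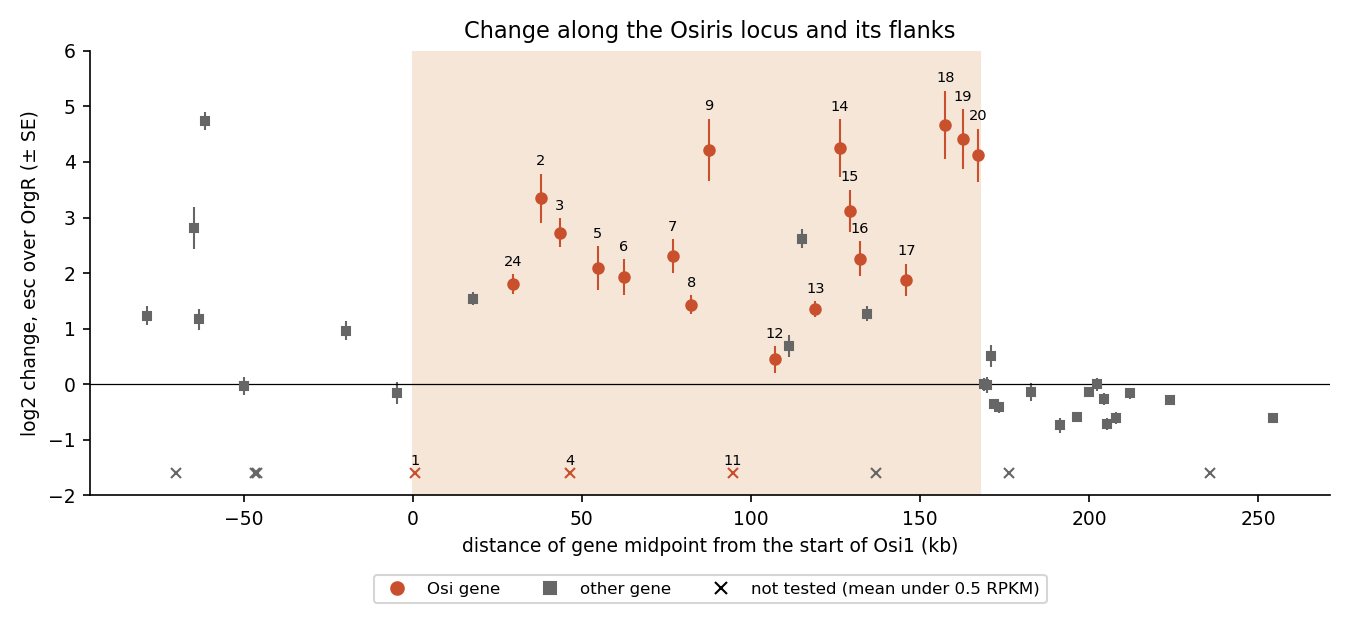
Log2 change of esc over OrgR (± SE) by the distance of a gene's midpoint from the start of Osi1, for Osi genes (orange, labelled by member number) and other genes (grey); crosses mark genes too low to test, drawn at an arbitrary height, and Osi10 has no single position and is not drawn. In the shaded stretch from Osi1 to Osi20 the tested Osi genes lie between 0.45 and 4.67, while no tested gene at higher coordinates passes as a rise.

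Genes that share tissues with the Osiris family were counted from lists chosen with earlier results of these data known. All counts stand beside the 20.9% of tested genes that rose and the 31.6% that fell. Of the 13 genes in the table from the list of epidermal and tracheal transcription factors, 7 fell, 1 rose and 5 did not pass. Ubr3, which fell (log2 change -0.54), is on this list but encodes a ubiquitin ligase. Of the 13, 2 fell under median-of-ratios scaling, 3 with the replicate block and 1 without the filter on low values. Falls numbered 9 with a correlation within sets and 10 with the libraries as separate samples or with set numbers crossed. Fewer than 7 fell with a set left out, where a genotype has no spread of its own. The nuclear receptor gene ftz-f1, tested through its level in esc, was the one that rose, from 0.372 to 40.5 RPKM, a log2 change of 4.92 ± 0.11 (adjusted p = 0.00026). The largest falls were those of rib (log2 change -0.98) and D (-0.89). The gene ovo, whose Shavenbaby product directs the making of epidermal denticles and their apical matrix, had 20.8 RPKM in OrgR and 14.6 RPKM in esc and did not pass (-0.48, adjusted p = 0.139).

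Against the same 20.9% rising and 31.6% falling, 5 of 12 denticle and apical matrix genes rose, 1 fell and 6 did not pass, with a median log2 change of 0.52. Those that rose most were zye, a zona pellucida domain gene (0.0625 to 6.32 RPKM, log2 change 2.78), and y, the yellow gene of cuticle pigment (2.53), and sn fell (-0.63, but not under median-of-ratios scaling). Both zye and y averaged under 0.5 RPKM in OrgR and were tested through esc, as were Ddc and b among the tanning genes, which leaves 3 rises in each of these lists that did not depend on this. Of 14 tracheal tube and chitin genes in the table, 9 rose, none fell and 5 did not pass, with a median of 0.65. They were led by obst-A, a chitin-binding protein gene (164 to 764 RPKM, log2 change 2.21), and wat, known from gas filling of the tracheae (18.1 to 58.6 RPKM, 1.66). Of 6 cuticle tanning genes, 5 rose, among them Ddc (3.10) and ple (2.50), with a median of 1.09. Without OrgR set 2, 5 of the tracheal tube genes and 3 of the tanning genes rose. Without OrgR set 1 or the filter on low values, 6 tracheal tube genes rose, and without the filter 2 tanning genes. The median of the tested Osiris members, 2.29, lay above each of these medians, which is a description of chosen lists with no test.

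Markers of other cell types were read beside the Osiris genes. Beside the 20.9% of tested genes that rose and the 31.6% that fell, 7 of 8 muscle genes rose, led by Mlp60A (3.04) and Prm (2.45), and their summed level was 1965 to 2962 RPKM in OrgR and 8803 to 10123 RPKM in esc. Of 6 tested neuronal genes none passed, the smallest p-values being those of elav (-0.77, adjusted p = 0.164) and Syt1 (0.49, adjusted p = 0.211). Their summed level, over 8 genes, was 72.5 to 113 RPKM in OrgR and 65.3 to 104 RPKM in esc. Among 5 glial genes repo (-0.66) and wrapper (-0.54) fell, but no glial gene fell under median-of-ratios scaling or with the replicate block. The count of glial genes that fell was 1 without the filter on low values and 3 with set numbers crossed. Of the 5, 1 rose under median-of-ratios scaling, after quantile normalization, with the libraries as separate samples and with a correlation within sets. Among the 4 tested genes each of hemocytes and fat body, NimC1 (1.03, tested through its level in esc) and FASN1 (0.73) rose and srp (-0.72) and Lsd-1 (-0.43) fell. No fat body gene fell without the filter on low values, under median-of-ratios scaling, or after centring or quantile normalization. None fell with the replicate block or without OrgR library 2-1 or esc library 1-2. None rose after quantile normalization, with the replicate block or with a filter of 5 RPKM, under which FASN1 was not tested. Calls of glial and fat body genes were also lost with a set left out, where a genotype has no spread of its own. No listed marker was at the floor in all 8 libraries.

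The summed levels of the muscle and tanning lists, and of no other list, also had the order of the OrgR sets seen in the Osiris genes. The muscle sum was 2940.2 RPKM in OrgR set 1 and 1983 RPKM in OrgR set 2, and the tanning sum 46.6 and 39.0 RPKM. In esc both sums stood in the other order, at 8831 and 10016 RPKM for muscle and 108 and 142 RPKM for tanning. Single genes did not all share these orders. In esc, Mlc2, Mlp60A and bt were lower in set 1, Mhc, up and wupA were higher, and Prm and sls overlapped. Among the tanning genes, laccase2 was higher in esc set 1 (ratio 1.11). In OrgR, e was lower in set 1 (0.843), and Ddc and laccase2 overlapped. The tracheal tube sum was lower in OrgR set 1 (2196 RPKM) than in set 2 (2395 RPKM) and higher in esc set 1 (4715 RPKM) than in set 2 (4019 RPKM). The sums of the transcription factor, denticle, neuron, glia, hemocyte and fat body lists had the same orders as the tracheal tube sum. The part of these differences in the Osiris result was not tested.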

How the data were processed

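Per the labels' protocols, total RNA of pooled whole embryos was sequenced from both ends, 150 bp each, in libraries that do not keep the strand. The authors deposited 1 table of RPKM values for 17321 genes and 8 libraries on a linear scale with no filter, per the labels. The submitters' processing notes name the build dm6. Aligner, counter and gene models are not given in the sources used here.

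Positions on dm6 came from Ensembl release 115; 12554 rows matched by symbol and 3634 through a synonym in the RefSeq gene table. Relative depth was taken from the RPKM ratio at which genes of equally few reads pile up between libraries; absolute depth per library is not given.

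A gene entered the test, on log2(RPKM + 1), where its 8 libraries averaged 0.5 RPKM or more. The 2 libraries of a set were averaged on this scale, and 2 set means per genotype were compared with limma 3.58.1 in R 4.3.3 (lmFit, eBayes with a trend in the variance), two-sided, adjusted over all tested genes by Benjamini and Hochberg, with a threshold of 0.05. The fit had 2 residual degrees of freedom, 4.55 after moderation. Its check on simulated data required only that the median change be recovered, and set no limit on false calls. Printed means and folds are of linear RPKM, and errors of log2 changes are standard errors.

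All Osi rows were named. Other genes of the locus were named where they passed, and of each list up to 2 rises and 2 falls, or the 2 smallest p-values where none passed; ovo and genes outside the locus were chosen after their values were seen. The members and lists were chosen with earlier results of these data known. Alternatives changed the filter, pseudocount, scaling, unit of replication, variance model and pairing, or left out libraries and sets. The listed genes tal and dp matched no row by name and were not used.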

Additional observations from a re-analysis of the deposited data

Results flagged for a closer look

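Over the 24 members and both genotypes, 48 groups of 4 libraries were examined for a library that stood apart from the other 3. Chance alone gives about 1 in 20 of these where the 4 libraries are independent. A single group held such a library, Osi22 in OrgR, where library 2-2 held 0.024 RPKM and the others were at the floor of 0.001 RPKM. At the depth stated in the labels' protocol, 1 read in Osi22 is worth 0.0216 RPKM. With the genotype difference removed, libraries of a set correlated within genes at 0.786, as 1 value pooled over the tested genes. The 4 libraries are thus not independent. The small number of such groups therefore does not show that the libraries agree.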

How the results depend on the processing

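Of 409 values of single Osi genes under 23 alternatives, 393 kept their direction and side of the threshold, 10 lost the call, 2 gained it and 4 changed sign. The changes of sign were all of Osi10, from -0.01 to 0.10 under median-of-ratios scaling, 0.03 after centring on the median gene, 0.04 without esc library 1-1 and 0.17 without OrgR set 1; with a library or set left out its range was -0.20 to 0.17. Osi10 was called lower after quantile normalization (-0.55), the 1 member called lower in any setting, and Osi12 higher with the 8 libraries as separate samples. The count of members called higher was 9 without the filter on low values, and in the other 22 settings it lay between 12 and 17; the 12 came with a filter of 5 RPKM, under which 13 members were tested. Leaving out 1 library gave 16, while with 1 set left out a genotype has no spread of its own.

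Over all tested genes, 2208 were called higher and 3329 lower. Higher calls numbered 1337 with a filter of 5 RPKM and 1302 to 2237 with a library or set left out. Lower calls numbered 1909 without a filter, 920 under median-of-ratios scaling, 5050 with 8 separate libraries and 736 to 3509 with a library or set left out. Of the other genes of the Osiris locus, 4 were called, 1 with a filter of 5 RPKM and 3 to 4 with a library or set left out. Without the filter on low values, 1 gene of the transcription factor list fell, and 2 tanning genes and 1 gene of the flank at lower coordinates rose. The cause of these shifts was not tested.

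The set numbers are not stated to pair the sets, and the deviations of same-numbered sets correlated at -0.34 over the tested genes. With the set number as a replicate block, 16 Osi genes were called higher, 3 other genes of the locus were called, and 899 of all genes were called lower. With set numbers crossed, chosen after seeing the data, 16 Osi genes were called higher. The fit has 2 residual degrees of freedom, and values under about 0.5 RPKM rest on few reads, which limits what the 6 untested members can show.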
